A study of Mus musculus with 16 samples.

Results

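The nuclear genes of oxidative phosphorylation were followed in mouse intestinal organoids with and without induced deletion of Hnf4a, a nuclear receptor of the intestinal epithelium. Genes were taken by symbol: those starting with Nduf and a letter a, b, c, s or v, with Uqcr, with Cox and a digit of 4 to 8, or with Atp5, together with Sdha, Sdhb, Sdhc and Sdhd. Symbols containing -ps, 4 in each table, were left out. This gave 87 genes in all, 86 of the 20790 genes in the day 2 table and 87 of the 20658 genes in the day 4 table. By their known roles or symbols, 43 were counted with complex I, 4 with complex II, 8 with complex III, 15 with complex IV and 17 with complex V. The symbols also take in 7 complex I assembly factors (Ndufaf), which are not part of the finished enzyme. Ndufa4 was counted with complex IV, of which it is a subunit despite its name. Atp5s and Atp5sl, which encode no structural subunit of complex V, were counted with it by symbol alone.

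Oxidative phosphorylation runs in the inner mitochondrial membrane. Complexes I and II pass electrons from NADH and succinate to ubiquinone, complex III passes them to cytochrome c and complex IV to oxygen, and complexes I, III and IV pump protons as they do so. Complex V, the ATP synthase, lets the protons flow back and makes ATP. Complexes I, III, IV and V combine nuclear-encoded subunits with a small core encoded by mitochondrial DNA, while complex II is wholly nuclear-encoded. In the small intestine absorptive cells of the villus and stem cells of the crypt both rely on mitochondrial respiration.

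The organoids were epithelial cultures from C57BL/6 mouse jejunum with the genotype Villin-CreERT2; Hnf4a flox/flox. Every library came from this genotype, so the recombinase, which the epithelial Villin promoter drives and tamoxifen switches on, and the floxed alleles were present in controls too. There were 4 groups of 4 libraries each: 4OHT day 2, DMSO day 2, 4OHT day 4 and DMSO day 4. The days are those of the sample labels. The treatment protocol names harvest on day 4 after the last passage for all samples, so the timing of day 2 is not settled. The 4OHT groups were exposed to hydroxytamoxifen at 0.5 µM over 24 h, after which they were passaged, and the DMSO groups were given vehicle. No label ties libraries to separate mice or cultures, so p-values measure only the spread between libraries, which may be technical. No untreated group and no 4OHT-treated organoids without Cre were analysed here.

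Library totals ran from 63.8 to 93.3 M counts, of which these genes took 1.37 to 1.44% in 4OHT day 2, 1.51 to 1.71% in DMSO day 2, 1.34 to 1.5% in 4OHT day 4 and 1.43 to 1.55% in DMSO day 4. Hnf4a itself stood at 482 to 532 CPM (counts scaled to library size) in 4OHT day 2 and 979 to 1047 CPM in DMSO day 2, and at 455 to 490.4 CPM in 4OHT day 4 and 956 to 984 CPM in DMSO day 4. Its transcript level therefore fell by 0.99 ± 0.05 (log2 ± SE) at day 2 and by 1.04 ± 0.05 at day 4 (edgeR adjusted p = 8.2e-08 and 1.1e-06). A count over the whole gene also takes in exons outside the floxed part. The 8 epithelial markers summed to 12802 to 13591 CPM in 4OHT day 2, 10813 to 12098 CPM in DMSO day 2, 8285 to 9603 CPM in 4OHT day 4 and 7107 to 7695 CPM in DMSO day 4. Immune markers summed to between 4.76 and 9.36 CPM and stromal and endothelial markers to at most 0.368 and 1.11 CPM over the 16 libraries. The 4OHT day 4 library of replicate 4 stood apart in a principal component analysis, and the mitochondrially encoded share of its counts was low at 1.55%, as was that of DMSO day 4 replicate 4 at 1.63%.

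At day 2 the nuclear respiratory genes were lower in 4OHT than in DMSO organoids by a modest and similar amount in every complex. Of 86 genes tested, 56 fell and 0 rose, against 14.3% of all 15897 tested genes that fell and 16.9% that rose. Before adjustment 78 were lower and 1 was higher at p below 0.05, and DESeq2 called 63 lower and 0 higher. The median log2 fold change of the 86 genes was -0.19, beside -0.00 for all tested genes. Without overlap between the groups, 52 of the 86 were lower in all 4 libraries of 4OHT than in any DMSO library, as were 14.8% of all tested genes. Folds are 4OHT over DMSO, and a gene was called at a Benjamini-Hochberg adjusted p below 0.05 in edgeR's quasi-likelihood test over all genes. In bulk RNA a lower share of cells rich in these transcripts and less of the transcripts per cell cannot be told apart.

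The complexes differed little in size of effect. The median log2 fold change at day 2 was -0.18 in complex I, -0.20 in complex II, -0.18 in complex III, -0.21 in complex IV and -0.19 in complex V. Of the tested genes, 26 of 43 fell in complex I, 4 of 4 in complex II, 6 of 8 in complex III, 10 of 14 in complex IV and 10 of 17 in complex V. Summed over the 86 genes listed at both days, the level was 13958, 14856, 13913 and 13891 CPM in the 4 libraries of 4OHT day 2, against 17739, 16085, 15526 and 14976 CPM in DMSO day 2. All 4OHT sums lay below all DMSO sums, but the highest 4OHT library and the lowest DMSO library were close. The mean sum in 4OHT was 88.0% of that in DMSO, with 87.5% for complex I, 87.0% for complex II, 87.1% for complex III, 86.3% for complex IV and 89.5% for complex V. Abundant genes weigh most in a sum. In complex V these were Atp5b and Atp5a1, at means of 2000 and 1495 CPM over the 16 libraries, and neither was called at day 2. No test of a difference between complexes was made, since their genes share the same libraries.

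**Figure D1:**
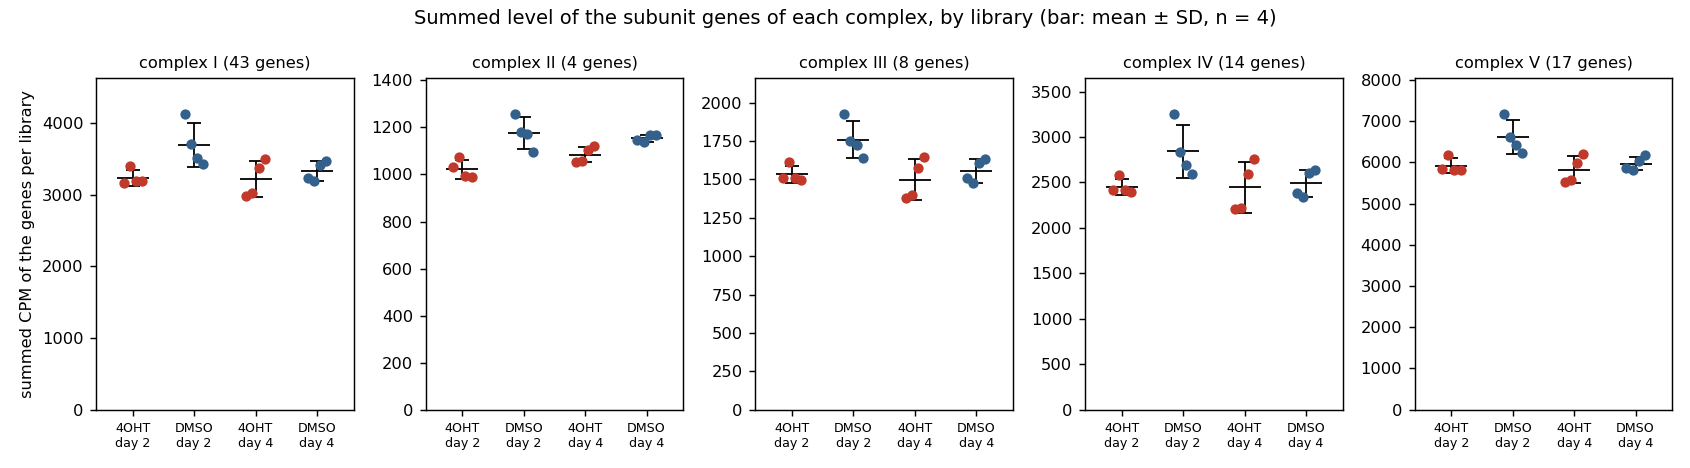
Summed CPM of the genes of each complex in every library, as 1 point per library, with the mean and SD of each group (n = 4), 4OHT left of DMSO at each day. In complexes I to V the 4OHT day 2 points lie lower than the DMSO day 2 points, and 1 library of DMSO day 2 lies above the other 3, while at day 4 the groups overlap in complexes I, III, IV and V.

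The genes moved together from library to library. Within 4OHT day 2, replicate 2 was the highest library for 80 of 86 genes. Within DMSO day 2, replicate 1 was the highest for 83 of 86 and replicate 4 the lowest for 68. The 56 calls are therefore not independent of each other. Without DMSO day 2 replicate 1, 46 genes fell, against 12.0% of all tested genes, and the median log2 fold change was -0.14. Without 4OHT day 2 replicate 2, 58 fell, against 13.1% of all. A block for the replicate number left 50 fallen, against 14.1% of all tested genes in that fit. The count was 36 without 4OHT replicate 1, 36 without 4OHT replicate 3, 37 without 4OHT replicate 4 and 34 without DMSO replicate 2, and 72 without DMSO replicate 4. In the same order, 12.4, 10.5, 11.7, 10.4 and 15.9% of all tested genes fell in these fits.

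Complex I has a catalytic core of nuclear-encoded flavoprotein and iron-sulfur subunits, surrounded by accessory subunits. At day 2, 6 of its 7 core genes fell. The exception, Ndufs1, its largest iron-sulfur subunit, stood at 172, 186, 181 and 173 CPM in 4OHT and 187, 187, 191 and 189.8 CPM in DMSO (log2 -0.08 ± 0.04, edgeR adjusted p = 0.18). Ndufv1, the subunit that binds NADH, had 232, 242, 227 and 227 CPM in 4OHT against 302, 274, 255 and 253 CPM in DMSO. For Ndufv1 the groups did not overlap, and its transcript fell by 0.22 ± 0.05 (adjusted p = 0.0099, edgeR).

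Among the 29 accessory genes of complex I, 17 fell. Ndufb4, of the membrane arm, had 12.6, 14.3, 13.9 and 14.6 CPM in 4OHT day 2 and 20.7, 17.4, 17.8 and 15.4 CPM in DMSO day 2, so that the nearest libraries of the groups were 14.6 and 15.4 CPM. It fell by 0.36 ± 0.08 (edgeR adjusted p = 0.0053). Ndufc1 fell by 0.24 ± 0.06 with levels of 31.2 to 33.7 CPM in 4OHT and 35.1 to 43.1 CPM in DMSO. Ndufb9 (log2 -0.23 ± 0.06) and Ndufa6 (log2 -0.21 ± 0.07), among the accessory genes with the most CPM per kilobase of transcript, fell as well, whereas Ndufb8 at log2 -0.15 ± 0.06 did not pass the test (edgeR adjusted p = 0.067). Of the 7 assembly factors 3 fell: Ndufaf2 by 0.26 ± 0.05, Ndufaf6 by 0.22 ± 0.06 and Ndufaf1 by 0.15 ± 0.05. Ndufaf7, a methyltransferase needed for early assembly, had log2 -0.06 ± 0.06.

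Complex II, the succinate dehydrogenase that also works in the tricarboxylic acid cycle, lost transcript from each of its 4 genes at day 2. Sdhb, the iron-sulfur subunit, had 133, 145, 125 and 125 CPM in 4OHT and 189, 164, 165 and 146 CPM in DMSO. The lowest DMSO library and the highest 4OHT library were about equal, and the others were apart. Sdhb fell by 0.32 ± 0.07 (edgeR adjusted p = 0.0056). Sdha, the flavoprotein that oxidises succinate, had 467, 474, 448 and 444 CPM in 4OHT and 527, 517, 517 and 489 CPM in DMSO. Its groups were apart, and it fell by a smaller 0.15 ± 0.04 (adjusted p = 0.018, edgeR). The membrane anchors Sdhc and Sdhd fell by 0.23 ± 0.06 and 0.17 ± 0.05.

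In complex III the Rieske iron-sulfur protein Uqcrfs1 fell by 0.14 ± 0.05, the only one of the 8 whose protein carries a redox centre. The accessory gene Uqcrq, whose protein sits beside cytochrome b, had 133, 144, 138 and 136 CPM in 4OHT day 2 against 201, 171, 172 and 160.0 CPM in DMSO day 2. No library of one group reached the other, and Uqcrq fell by 0.34 ± 0.06 (edgeR adjusted p = 0.0011). Uqcrh, the hinge protein, fell by 0.28 ± 0.06, Uqcr10 by 0.19 ± 0.06 and the core protein gene Uqcrc2 by 0.18 ± 0.04. Its partner Uqcrc1 did not pass the test at log2 -0.14 ± 0.05 (edgeR adjusted p = 0.063).

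Complex IV, cytochrome c oxidase, held the gene with the largest fall at day 2. Cox7a1, an isoform known from heart and skeletal muscle, had 6.26, 7.05, 5.15 and 5.06 CPM in 4OHT and 13.4, 9.09, 10.8 and 8.27 CPM in DMSO. All 4OHT libraries were below all DMSO libraries, and Cox7a1 fell by 0.81 ± 0.15 (edgeR adjusted p = 0.0015). Its widely expressed counterpart Cox7a2 had 113, 124, 117 and 115 CPM in 4OHT against 154, 134, 129 and 126 CPM in DMSO, also without overlap, and fell by 0.20 ± 0.06. Per kilobase of transcript Cox7a1 reached 14.96 ± 2.42 CPM in 4OHT day 2 and 26.4 ± 5.71 CPM in DMSO day 2 (mean ± SD, n = 4 each). Cox7a2 reached 178 ± 7.63 CPM per kilobase in 4OHT and 206 ± 18.9 in DMSO, so Cox7a2 was the more abundant isoform in each.

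Of the 10 widely expressed subunits of complex IV, 7 fell at day 2. Cox7b had 143, 159.8, 147 and 143 CPM in 4OHT and 203, 179, 177 and 164 CPM in DMSO, without overlap. Cox7b and Cox7c each fell by 0.28 ± 0.06 (edgeR adjusted p = 0.0044 and 0.0040). Cox6a1 fell by 0.24 ± 0.07, Cox4i1, which with the mitochondrially encoded core is among the first subunits assembled, by 0.22 ± 0.07, and Cox6c by 0.21 ± 0.06. Cox8a at log2 -0.16 ± 0.06, Cox6b1 at -0.18 ± 0.07 and Cox5a at -0.10 ± 0.06 did not pass the test. Cox7a2l, classed here as a factor of supercomplexes (respiratory complexes joined together), fell by 0.21 ± 0.06, and Ndufa4 by 0.19 ± 0.06.

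The 2 remaining tissue-restricted isoforms were hardly expressed. Cox6b2, known from testis, had 7, 19, 14 and 19 counts in the 4OHT day 2 libraries and 11, 8, 10 and 8 counts in the DMSO day 2 libraries, with overlap between the groups. It was the only tested gene with a positive log2 fold change at day 2, 0.84 ± 0.31, and did not pass the test (edgeR adjusted p = 0.061). Per kilobase it stood at 0.335 ± 0.114 CPM in 4OHT and 0.189 ± 0.043 CPM in DMSO, whereas its widely expressed counterpart Cox6b1 stood at 399 ± 12.0 CPM in 4OHT and 455 ± 54.4 CPM in DMSO (mean ± SD, n = 4 each). Cox6a2, a muscle isoform, was listed only in the day 4 table, with 0, 2, 1 and 2 counts in 4OHT and 4, 2, 3 and 3 counts in DMSO, and was below the filter. At day 4 Cox6b2 was also below it.

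Complex V held both genes that fell and genes with high levels that did not pass the test. All 4 genes of the peripheral stalk, which keeps the catalytic head from turning, fell at day 2. Among them Atp5j had 129.7, 138, 129 and 128 CPM in 4OHT and 162, 152, 146 and 144 CPM in DMSO, without overlap, and fell by 0.20 ± 0.04 (edgeR adjusted p = 0.0061). The 3 other membrane-sector (Fo) genes fell too. In the catalytic F1 head only 1 of 5 genes fell. Atp5b, the catalytic beta subunit and the most abundant transcript per kilobase of the 87, had 1962, 2059, 1937 and 1944 CPM in 4OHT against 2338, 2200.2, 2109 and 2068 CPM in DMSO. Its groups were adjacent without overlap, and its log2 fold change of -0.13 ± 0.05 did not pass the test (adjusted p = 0.063, edgeR). Atp5a1, the alpha subunit, had log2 -0.11 ± 0.05 (edgeR adjusted p = 0.088).

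The c-ring that turns as protons pass is built from 1 protein encoded by 3 genes. Atp5g3 had 391, 418, 393 and 391 CPM in 4OHT day 2 and 495, 464, 443 and 438 CPM in DMSO day 2, and fell by 0.20 ± 0.05 (edgeR adjusted p = 0.0077). Atp5g1 (log2 -0.15 ± 0.05) and Atp5g2 (log2 -0.12 ± 0.05) had adjusted p of 0.052 and 0.075 in edgeR. Per kilobase Atp5g3 was the highest of them in DMSO day 2 at 644 ± 36.4 CPM, followed by Atp5g2 at 197 ± 15.01 and Atp5g1 at 39.6 ± 3.11 CPM (mean ± SD, n = 4), and this order was the same in the other 3 groups. The order of Atp5g2 and Atp5g1 rests on the transcript lengths used, 731 and 4715 bases. Without division by length, Atp5g1 averaged 163 CPM over the 16 libraries and Atp5g2 145 CPM. Of the 2 genes with an Atp5 symbol that encode no structural subunit, Atp5sl fell by 0.29 ± 0.05 and Atp5s had log2 -0.18 ± 0.08 (edgeR adjusted p = 0.0020 and 0.088). Atpif1, which encodes the inhibitor of the ATP synthase and lies outside the symbol rule, had 139, 151, 129.6 and 132 CPM in 4OHT and 209, 181, 177 and 164 CPM in DMSO, without overlap, and fell by 0.40 ± 0.07 (edgeR adjusted p = 0.0012).

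**Figure D2:**
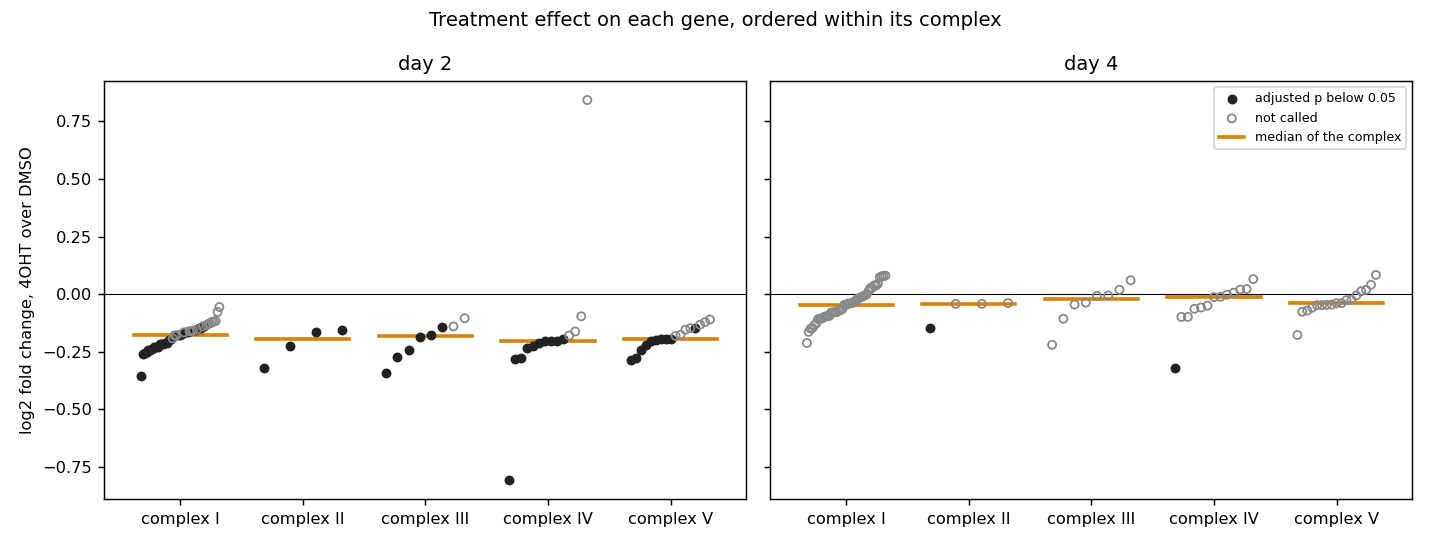
Log2 fold change of 4OHT over DMSO for every tested gene, by complex, with day 2 and day 4 in separate panels, filled points for genes that passed edgeR's adjusted p below 0.05 and a line at the median of each complex. At day 2 all points but that of Cox6b2 lie below 0 and 56 of 86 are filled, and at day 4 the points lie near 0 with only Sdha and Cox7a1 filled.

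Most transcripts in this group are short, with a median length of 875 bases against 2577 bases for all genes tested at day 2, and transcript length moved with the day 2 fold change. Other tested genes under 1 kb had a median log2 fold change of -0.09 with 12.7% fallen, and those over 4 kb a median of 0.08. The nuclear respiratory genes under 1 kb had a median of -0.20, and 32 of 48 fell. In an edgeR fit with an offset for transcript length and GC content, 70 of the 86 fell and 1, Cox6b2, rose, against 19.9% of all tested genes that fell and 15.9% that rose in that fit, and their median was -0.16 beside -0.03 for all genes.

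At day 4 the same genes lay near their DMSO levels. Of 85 tested, 2 fell and 0 rose, against 11.1% of all 16040 tested genes that fell and 13.7% that rose. Before adjustment 7 of the 85 were lower and 0 higher at p below 0.05. DESeq2 called 3 lower and 0 higher, against 11.5% and 13.8% of all genes tested there. The median log2 fold change was -0.04, beside -0.01 for all genes, and 4 of the 85 lay below DMSO without overlap (Atp5s, Cox7a1, Ndufv1 and Sdha), as did 13.6% of all tested genes. The median depended on single libraries: it was 0.0024 without 4OHT replicate 1, -0.01 without 4OHT replicate 2, -0.07 without 4OHT replicate 3 and -0.08 without 4OHT replicate 4, and it was -0.03 without DMSO replicate 3 and -0.02 without DMSO replicate 4. Summed over those 86 genes, the level was 13149, 13268, 14620.3 and 15232 CPM in 4OHT day 4, against 14138, 13944, 14831 and 15087 CPM in DMSO day 4. The sums overlapped, and the mean in 4OHT was 97.0% of that in DMSO. By complex it was 96.7% (I), 93.9% (II), 96.4% (III), 98.1% (IV) and 97.5% (V). Complex II was the only one whose sums did not overlap at day 4, with 1053 to 1119 CPM in 4OHT and 1137 to 1166 CPM in DMSO. Sdha, its most abundant gene at a mean of 496 CPM over the 16 libraries, weighs most in that sum. Of the 4 complex II genes only Sdha lay apart between the groups at day 4.

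The 2 genes that fell at both days were Sdha and Cox7a1. At day 4 Sdha had 490.3, 482, 476 and 475 CPM in 4OHT against 540.1, 537, 529 and 524 CPM in DMSO. The groups were well apart, and the fall of 0.15 ± 0.04 was as large as at day 2 (edgeR adjusted p = 0.029). Cox7a1 had 15.9, 19.7, 21.2 and 15.8 CPM in 4OHT and 21.5, 21.3, 25.5 and 22.6 CPM in DMSO, with the highest 4OHT library just below the lowest DMSO library. It fell by 0.32 ± 0.10 (adjusted p = 0.044, edgeR). Neither call at day 4 was firm: leaving out 1 library gave edgeR adjusted p of 0.044 to 0.081 for Sdha and 0.019 to 0.129 for Cox7a1.

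The remaining complex II genes did not pass the test at day 4. Sdhb had 139, 151, 166 and 159 CPM in 4OHT and 155, 149.7, 165 and 163 CPM in DMSO, with full overlap (log2 -0.04 ± 0.06). Sdhc and Sdhd each stood at log2 -0.04 with SEs of 0.06 and 0.05. Complex II thus held Sdha, lower at both days, beside Sdhb, which fell by more at day 2 and overlapped DMSO at day 4. The c-ring genes Atp5g1 (log2 -0.07 ± 0.06), Atp5g2 (-0.06 ± 0.06) and Atp5g3 (-0.08 ± 0.06) did not pass either, nor did Atpif1 (-0.13 ± 0.06, edgeR adjusted p = 0.14).

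**Figure D3:**
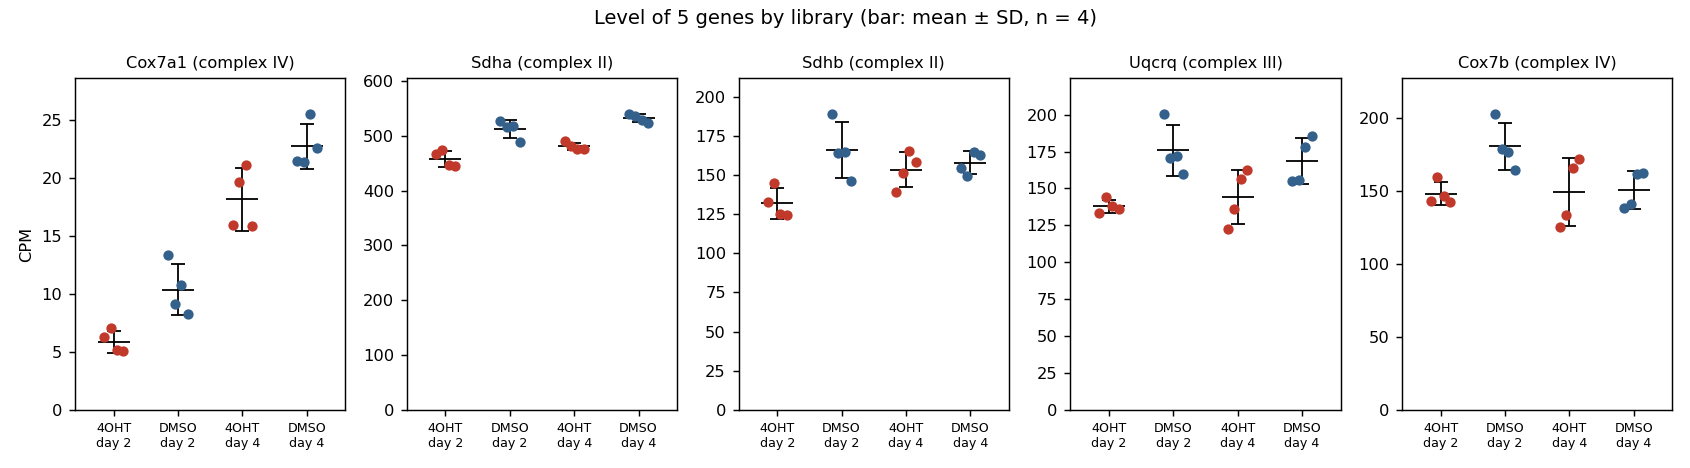
CPM of Cox7a1, Sdha, Sdhb, Uqcrq and Cox7b in each of the 16 libraries, 1 point per library, with the mean and SD per group (n = 4), 4OHT left of DMSO at each day and every vertical axis starting at 0. Sdha and Cox7a1 lie lower in 4OHT than in DMSO at both days, while the Sdhb and Cox7b points overlap at day 4.

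At day 4 libraries with the same replicate number deviated together, so that the numbers pair them. The respiratory genes followed this: replicate 4 was the highest library for 66 of 87 genes in 4OHT day 4 and for 60 of 87 in DMSO day 4. With that number as a block, 17 of 85 genes fell and 0 rose at day 4, against 22.2% of all tested genes that fell and 22.8% that rose in that fit, so that their share lay near that of all genes. Uqcrq had 123, 136, 157 and 162 CPM in 4OHT and 155, 156, 178 and 185 CPM in DMSO in replicate order, lower in each pair though the groups overlapped. Its log2 fold change was -0.22 ± 0.09 without the block (edgeR adjusted p = 0.12) and -0.23 with it (adjusted p = 0.00032).

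The blocked falls at day 4 were small. They included 4 assembly factors, Ndufaf6 by 0.21, Ndufaf1 by 0.17, Ndufaf2 by 0.16 and Ndufaf7 by 0.13 (edgeR adjusted p with the block 0.018, 0.0096, 0.048 and 0.036). The accessory genes Ndufb4 (by 0.16) and Uqcrc2 (by 0.11), the complex IV genes Cox7c and Ndufa4 (each by 0.10) and Atp5s (by 0.18) fell in the same fit, as did Sdha and Cox7a1. The complex III gene Uqcrb, whose product is known as a ubiquinone-binding protein, was not among them. Atpif1 passed there as well (adjusted p = 0.010). Across the 4 pairs, 29 of 85 genes were lower in 4OHT in every pair and 3 were higher in every pair. This count was not made over all tested genes, so it does not set the group apart from them. The pairs differed: 79 genes were lower in pair 1, 70 in pair 2, 52 in pair 3 and 36 in pair 4.

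Whether the treatment effect differed between days was tested as an interaction over all 16 libraries. Of 86 genes, 0 passed in edgeR or in DESeq2, against 1.68% of all 16597 tested genes in edgeR. Of all 13384 genes tested in DESeq2, 595 passed with a day 4 effect above the day 2 effect and 241 with one below it. Before adjustment 11 genes had p below 0.05 in edgeR and 10 in DESeq2, all 11 with a difference (day 4 minus day 2 effect) above 0. The median difference was 0.16, beside 0.01 for all tested genes, and it was positive for 83 of the 86. Other tested genes under 1 kb had a median difference of 0.09, and those over 4 kb one of -0.08. In the fit with an offset for transcript length and GC content, the median of the 86 was 0.10. Both treatment effects enter each difference, and the genes share libraries, so the 83 are not independent. A replicate block within day also covers day 2, where same-numbered libraries were not found to be paired. With that block, the difference was called positive for 6 genes and negative for 0, against 7.05% of all tested genes called positive. These were Sdhb (0.28), Atp5sl (0.30), Cox7b (0.26), Ndufb10 (0.25), Atp5o (0.24) and Ndufs5 (0.23). Without the block the difference for Sdhb was 0.29 ± 0.10 (edgeR adjusted p = 0.15), for Cox7b 0.27 ± 0.13 (adjusted p = 0.29) and for Atp5sl 0.31 ± 0.10 (adjusted p = 0.11). For Sdha the difference was 0.01 ± 0.06 and for Cox7a1 0.49 ± 0.20 (edgeR adjusted p = 0.93 and 0.21).

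The same 16 libraries were then compared between days within each treatment, and the day cannot be told apart from any batch of the day. These comparisons share their libraries with those above and are given as each one's own values. In 4OHT organoids 9 of 85 genes were lower at day 4 than at day 2 and 10 were higher, against 23.5% and 25.9% of all 15962 tested genes. Their median log2 change was -0.03. In DMSO organoids 47 of 85 were lower at day 4 and 4 were higher, against 24.8% and 28.7% of all 16088 tested genes, with a median of -0.17. By complex, 25 of 43 genes in complex I, 1 of 4 in II, 5 of 8 in III, 8 of 13 in IV and 8 of 17 in V fell in DMSO.

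Cox7a1 rose over time in both treatments. It was 1.63 ± 0.13 (log2) higher at day 4 than at day 2 in 4OHT and 1.15 ± 0.13 higher in DMSO (edgeR adjusted p = 8.7e-06 and 1.6e-05). No library of day 4 overlapped one of day 2, in 4OHT or in DMSO. Cox7a2l rose by 0.44 ± 0.06 in 4OHT and 0.30 ± 0.07 in DMSO. Ndufa6 rose by 0.44 ± 0.09 in 4OHT and 0.20 ± 0.08 in DMSO, and Atp5s by 0.27 ± 0.08 in 4OHT and 0.26 ± 0.08 in DMSO. These were the 4 genes that rose in DMSO. In 4OHT the others that rose were Ndufv3 (0.40), Ndufb11 (0.33), Sdhb (0.23), Atp5sl (0.21), Atp5g2 (0.19) and Sdhc (0.17).

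Complex I assembly factors fell over time in both treatments, 4 of 7 in 4OHT and 6 of 7 in DMSO. Ndufaf4 had 26.6, 32.03, 32.5 and 29.8 CPM in 4OHT day 4 and 37.9, 44.2, 41.2 and 40.9 CPM in 4OHT day 2. It fell by 0.43 ± 0.07 in 4OHT, and by 0.44 ± 0.06 in DMSO (edgeR adjusted p = 0.00064 and 5.5e-05). Ndufb6, a membrane-arm subunit, fell by 0.38 ± 0.08 in 4OHT and 0.52 ± 0.06 in DMSO. The other genes that fell in 4OHT were Ndufaf6 (by 0.28), Ndufa4 (by 0.27), Atp5g1 (by 0.21), Ndufaf3 (by 0.20), Cox5a (by 0.19), Ndufaf1 (by 0.19) and Ndufs1 (by 0.18), each of which also fell in DMSO.

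**Figure D4:**
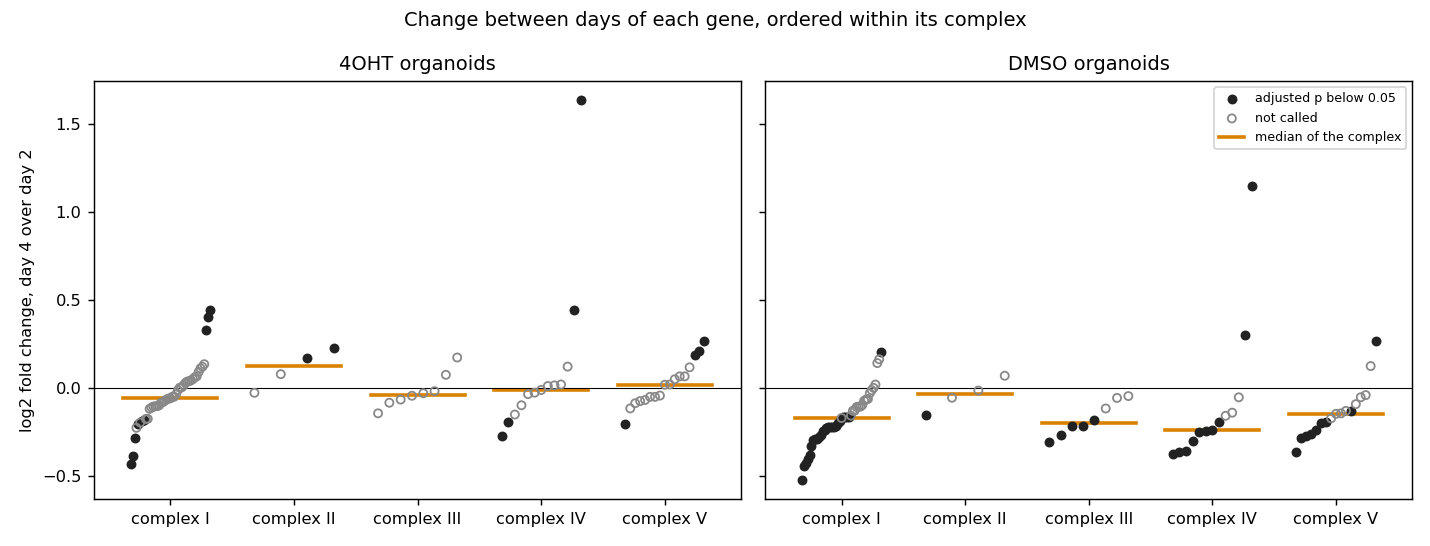
Log2 change of day 4 over day 2 for every tested gene by complex, in 4OHT (left) and DMSO (right), with filled points for edgeR's adjusted p below 0.05 and a line at the median of each complex. In 4OHT the points scatter around 0, in DMSO most lie below it, and Cox7a1 lies far above the others in both panels.

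Per kilobase of transcript, averaged over all 16 libraries, Atp5b had the highest level at 1044 CPM, followed by Cox8a (646), Atp5a1 (605), Atp5g3 (563) and Cox4i1 (554). Within a complex the levels spread widely. The median over genes was 78.1 CPM per kilobase in complex I, 152 in complex II, 207 in complex III, 241 in complex IV and 208 in complex V. Complex I had its highest level in Ndufb9 at 254 CPM per kilobase and complex III in Uqcrh at 306. The complex I median takes in the low assembly factors, such as Ndufaf6 at 9.98 and Ndufaf7 at 10.7 CPM per kilobase. Each length is that of 1 annotated transcript, so these levels depend on the isoform used.

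Promoter sequence is shown for the 2 genes that fell at both days and for 2 genes whose promoter holds a motif found more often in this group. Atp5k and Cox6a1 were chosen after values were seen, because they hold the full NRF1 motif given below and also fell at day 2. Windows of 250 bases before to 50 bases after the start were taken from RefSeq (GRCm38.p6) for 74 of the 87 genes, 80 windows in all. The 250 bases before the start are printed 5′ to 3′ on the strand of the gene, in lower case with motif matches in capitals: Cox7a1 (chr7:30183921-30184170, plus strand) and Sdha (chr13:74350241-74350490, minus strand) hold none, while Atp5k (chr5:108434400-108434649, minus strand) and Cox6a1 (chr5:115348959-115349208, minus strand) hold the full NRF1 motif (the only capitals in Atp5k and the first in Cox6a1), and Cox6a1 also CTTCCGG, the reverse complement of the ETS motif CCGGAAG.
Cox7a1: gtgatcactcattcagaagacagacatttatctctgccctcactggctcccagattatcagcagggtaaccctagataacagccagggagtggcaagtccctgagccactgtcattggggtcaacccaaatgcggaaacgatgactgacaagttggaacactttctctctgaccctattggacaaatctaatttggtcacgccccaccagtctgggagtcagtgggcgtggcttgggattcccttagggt
Sdha: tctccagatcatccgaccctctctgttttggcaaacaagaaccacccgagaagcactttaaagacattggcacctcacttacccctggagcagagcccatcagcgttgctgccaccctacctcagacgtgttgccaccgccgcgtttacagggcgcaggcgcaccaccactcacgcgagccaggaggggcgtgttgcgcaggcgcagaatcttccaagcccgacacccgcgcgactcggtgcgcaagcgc
Atp5k: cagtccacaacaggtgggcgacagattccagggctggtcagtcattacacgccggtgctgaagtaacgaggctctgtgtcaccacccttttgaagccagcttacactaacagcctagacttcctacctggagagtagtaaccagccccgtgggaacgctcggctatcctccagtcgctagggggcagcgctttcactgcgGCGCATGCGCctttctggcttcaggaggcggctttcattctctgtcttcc
Cox6a1: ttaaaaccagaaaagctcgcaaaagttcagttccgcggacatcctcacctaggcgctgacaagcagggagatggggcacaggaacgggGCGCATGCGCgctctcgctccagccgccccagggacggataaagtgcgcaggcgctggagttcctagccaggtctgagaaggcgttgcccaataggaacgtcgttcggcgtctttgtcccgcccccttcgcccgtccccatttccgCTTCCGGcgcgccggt

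Motifs were searched as exact letters on both strands. The full NRF1 motif, a palindrome bound by a regulator of nuclear respiratory genes, lay in 8.75% of the 80 windows and in 0.971% of all 32851 windows of the same length. Its core GCATGC, which lies within the full motif, was in 18.8% and 7.93%. CCGGAAG, an ETS motif of the kind bound by GABP, was in 21.3% and 8.86%, and the YY1 motif in 7.50% and 0.633%. CAAAGTCCA or CAAAGGTCA, the letters of HNF4 sites, was in 0 of 80 windows and in 0.950% of all windows, so that these letters are not in these windows. Exact letters find only some of the sites of a factor, and distal sites were not searched. The 7 genes with the full NRF1 motif were Atp5g2, Atp5k, Cox6a1, Ndufa11, Ndufaf4, Ndufaf5 and Uqcrc1. Of these only Cox6a1 and Atp5k fell at day 2, and the others did not pass the test. Among all 86 genes of the group tested at day 2, 56 fell. Atp5k fell by 0.19 ± 0.06 with 73.2, 84.0, 77.7 and 76.5 CPM in 4OHT and 101, 88.1, 85.5 and 83.3 CPM in DMSO.

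The mitochondrially encoded subunits, which share complexes I, III, IV and V with these genes, were not called at either day without the replicate block. Of 13, 0 passed at day 2 and 0 at day 4 in edgeR or in DESeq2, with 0 at an unadjusted p below 0.05 by either, and their medians were -0.07 and -0.05. The smallest p were for mt-Nd3 at day 2 (log2 -0.34 ± 0.18) and for mt-Atp8 (log2 -0.34 ± 0.27) and mt-Nd6 (log2 -0.40 ± 0.34) at day 4. With the replicate block at day 4, mt-Nd6 fell by 0.42 ± 0.07 (edgeR adjusted p = 0.0014), the only one of the 13 called in that fit. The spread of single genes was wide, so these values do not show that the mitochondrial transcripts were unchanged. Libraries were selected for poly(A), which may take mitochondrial transcripts unevenly.

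Genes that build or feed the respiratory chain moved in part as the nuclear subunits did. Their counts stand beside 14.3% fallen and 16.9% risen among all tested genes at day 2, and 11.1% and 13.7% at day 4. Of 38 assembly factors outside the symbol rule, 18 fell and 0 rose at day 2, led by the complex IV factor Cox16 (log2 -0.29 ± 0.05) and the ATP synthase factor Tmem70 (-0.23 ± 0.04). At day 4, 7 fell and 0 rose, led by Acad9 (-0.19 ± 0.04) and Cox18 (-0.28 ± 0.07). Of 19 genes for electron carriers and for exchange of ADP and phosphate, 9 fell and 3 rose at day 2, and 2 fell and 2 rose at day 4. Pdss1, of ubiquinone synthesis, fell by 0.63 ± 0.06 at day 2, and Vdac2, an outer membrane channel, was higher by 0.28 ± 0.04. At day 4 Dhodh, a dehydrogenase that feeds ubiquinone, fell by 0.25 ± 0.05 and Gpd2, of the glycerol phosphate shuttle, was higher by 0.32 ± 0.08. With the replicate block at day 4, 9 of the 38 assembly factors fell and 2 rose, and 4 of the 19 carrier and exchange genes fell and 4 rose, shares to be read against 22.2% fallen and 22.8% risen among all genes.

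Of 18 genes of the tricarboxylic acid cycle, 8 fell and 1 rose at day 2, and 2 fell and 2 rose at day 4. Among all tested genes 14.3% fell and 16.9% rose at day 2, and 11.1% fell and 13.7% rose at day 4. Pcx, the pyruvate carboxylase, was higher by 0.36 ± 0.05 at day 2 and 0.60 ± 0.13 at day 4, while Idh2, the NADP-dependent isocitrate dehydrogenase, fell by 0.24 ± 0.05 at day 2 and 0.22 ± 0.05 at day 4. Of 20 regulators of mitochondrial biogenesis, 19 were tested, and 7 fell and 0 rose at each day. With the replicate block at day 4, 9 of the 18 cycle genes fell and 3 rose, and 12 of the 19 regulators fell and 0 rose. In that blocked fit 22.2% of all tested genes fell and 22.8% rose. Esrrg, a nuclear receptor that drives oxidative genes, fell by 0.80 ± 0.13 at day 2 and 0.84 ± 0.11 at day 4. The mitochondrial helicase gene Peo1 fell by 0.27 ± 0.04 at day 2, and the single-stranded DNA-binding protein gene Ssbp1 fell by 0.22 ± 0.04 at day 4.

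Markers of cell types also differed between 4OHT and DMSO, in directions that varied by list and day, and their part in the result was not tested. Over all tested genes 14.3% fell and 16.9% rose at day 2, and 11.1% fell and 13.7% rose at day 4. Of 15 enterocyte markers 11 fell and 0 rose at day 2, with a summed level of 7475 to 10355 CPM in 4OHT and 10529.9 to 14414 CPM in DMSO, and 0 fell and 2 rose at day 4, with 14198 to 20064 CPM in 4OHT and 16140.0 to 17276 CPM in DMSO. Of 9 stem cell markers 6 fell at day 2 and 8 at day 4. They summed to 744 to 812 CPM in 4OHT and 1241 to 1384 CPM in DMSO at day 2, and to 2176 to 2570.2 CPM in 4OHT and 3253 to 3611 CPM in DMSO at day 4. Of 8 goblet cell markers 6 rose at each day, with sums of 7444 to 9530 CPM in 4OHT and 4880 to 5731 CPM in DMSO at day 2, and of 7337 to 9266 CPM in 4OHT and 3958 to 5203 CPM in DMSO at day 4. Of 7 Paneth cell markers 4 fell and 1 rose at day 2, with sums of 1569 to 1735 CPM in 4OHT and 1892 to 2456 CPM in DMSO, and 3 fell and 1 rose at day 4, with 2226 to 2418 CPM in 4OHT and 2477 to 3043 CPM in DMSO.

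Some values carry an identity limit. Exons of 28 of the 87 genes overlap a gene on the opposite strand, and how strand was treated in counting is not given in the sources used here. Ndufaf2, Atp5j, Uqcrc2, Cox4i1, Cox6c, Atp5a1, Ndufs1, Ndufb6, Cox5a and Uqcrb are among them, and their values are uncertain to that extent. Stretches of at least 100 bases at 95% identity or more were shared with transcripts of other genes for 38 of the 87. For 22 the other gene was an annotated pseudogene elsewhere, and for 0 of the 22 did the counts of the pseudogenes exceed 5% of the gene's own day 2 counts. For 17 it was a gene overlapping at the same place, whose counts exceeded that 5% for Atp5f1, Atp5j, Cox4i1, Ndufb11, Ndufb2 and Ndufb5. For 8 it was another gene elsewhere, and Ndufaf7 and Ndufc1 exceeded the 5%, through stretches of at most 165 bases shared with many genes. How reads from such stretches were counted is not given in the sources used here, and the values of these 8 genes over 5% are uncertain to that extent. Reads left out for mapping to several places cannot be seen in these tables.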

How the data were processed

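Whole-number read counts per gene were deposited by the authors in 1 table per day, each with 8 libraries of poly(A) RNA. Deposited normalized values, a score per gene and library, were not used. The tools named in the submitters' processing notes are STAR 2.4.0f1 and bcl2fastq 1.8.4, with build GRCm38. What counted the reads, against which annotation and with or without strand, is not given in the sources used here. Coordinates and lengths (principal coding transcript) come from GENCODE M21, and promoters from RefSeq.

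Counts were tested in R 4.3.3 with edgeR 4.0.16 (TMM, filterByExpr, robust quasi-likelihood fits, Benjamini-Hochberg over all tested genes). CPM used TMM factors over 16 libraries. Totals of 63.8 to 93.3 M counts per library set its precision, and without molecular identifiers counting error alone understates the error. DESeq2 1.42.0, other scalings and filters, a replicate block and left-out libraries were alternatives. The fits were tested on simulated data.

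Same-numbered libraries at day 4 deviated together (r 0.64 to 0.81 over 9781 genes above a log2 CPM of 3), so numbers pair them. This comes from the data, since no label names a shared batch. At day 2 r between same-numbered libraries was -0.11 to 0.48, and pairing by number was not detected. Between libraries of different number r ran from -0.67 to 0.56 at day 2, highest for 4OHT replicate 3 with DMSO replicate 4. At day 4 it ran from -0.68 to 0.50. A block for the replicate number at day 2 therefore does not rest on a pairing seen in the data.

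The genes, lists, tests and alternatives were chosen with earlier results of these data known. Named by rule were Hnf4a, the Sdh genes, the 3 smallest p and the 3 highest levels per complex and treatment comparison, isoforms and their counterparts, c-ring genes, called exceptions to the main direction, genes under the filter, and the 2 smallest p per pathway list. Other names were chosen after their values were seen.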

Additional observations from a re-analysis of the deposited data

Results flagged for a closer look

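A library at one end of its group, with a gap to the next library beyond Dixon's critical value at 95%, was found in 17 of 202 groups of 4 libraries. Chance flags about 1 in 20 such groups, and the genes share libraries, so the flags are not separate. Most concern replicate 2 of 4OHT day 2, the highest library of its group for 80 of 86 genes. Its summed level was 14856 CPM over all genes, 3397 CPM for complex I, 1616 CPM for complex III, 2585 CPM for complex IV and 6183 CPM for complex V. In the same library Sdhd stood at 249 CPM, Ndufc1 at 33.7, Uqcrc2 at 356, Uqcrh at 158, Cox6b1 at 258, Cox7c at 132, Atp5g1 at 176, Atp5g3 at 418 and Atp5j at 138 CPM.

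The remaining libraries set apart in this way were replicate 1 of 4OHT day 2 for Ndufb6, the lowest at 50.5 CPM, replicate 4 of 4OHT day 4 for Ndufaf7, the highest at 19.1 CPM, and DMSO day 4 for Cox6a2, whose lowest value of 0.0213 CPM rests on 2 counts.

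By the interaction test with a replicate block, the treatment effects at day 4 and day 2 were called different for Atp5sl (log2 difference 0.30), Sdhb (0.28), Cox7b (0.26), Ndufb10 (0.25), Atp5o (0.24) and Ndufs5 (0.23). Each had a negative log2 fold change at day 2. These 6 of 86 are 6.98%, near the 7.05% of all tested genes called positive in that fit. In the fit without the block these differences did not pass. The block also covers day 2, where same-numbered libraries were not found to be paired.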

How the results depend on the processing

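With the replicate block, 50 genes fell at day 2, 17 fell at day 4 and 6 had a positive interaction, against 56, 2 and 0 without it. At an adjusted p below 0.01, 14 fell at day 2 and 0 at day 4, against 7.39% and 5.57% of all tested genes. Over time at that threshold, 26 fell and 2 rose in DMSO, against 18.9% and 21.3% of all. In 4OHT 4 fell and 5 rose, against 16.3% and 17.7% of all. An offset for transcript length and GC content, added after seeing the data, gave 70 lower and 1 higher at day 2, 8 lower at day 4 (15.7% of all tested genes), 7 higher over time in DMSO (27.1% of all) and 21 lower over time in 4OHT (28.5% of all). With the block as well, also added later, these were 35 lower at day 4 (28.2% of all), 7 with a positive interaction (7.40% of all), 7 higher in DMSO (27.6% of all) and 20 lower in 4OHT (29.2% of all). The cause was not tested.

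Leaving out 1 library gave 34 to 72 lower and 0 to 1 higher at day 2, 0 to 3 lower at day 4 and 0 to 1 with a positive interaction. Among all tested genes these fits gave 10.4 to 15.9% lower and 12.7 to 16.3% higher at day 2. They gave 7.70 to 10.7% lower at day 4 and 0.393 to 2.99% with a positive interaction. Over time, leaving out 1 library gave 32 to 58 lower (32 without DMSO day 4 replicate 1) and 3 to 7 higher in DMSO (7 without DMSO day 2 replicate 1). Among all tested genes these were 21.5 to 25.5% and 24.9 to 27.3%. In 4OHT it gave 7 to 20 lower (20 without day 4 replicate 4) and 6 to 11 higher (6 without day 2 replicate 3). Among all tested genes these were 19.3 to 25.1% and 21.6 to 27.1%. Sdhb at day 4 ranged from -0.087 to 0.0056 (log2) and changed sign without 4OHT day 4 replicate 1. Fold changes of this size lie near the spread between libraries, and 4 libraries per group limit what could be called.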
